A study of Mus musculus with 62 samples.

Results

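Intermediate monocytes sorted from mouse bone marrow were set against classical monocytes from the same tissue, with 2 libraries in each group. These 4 libraries, taken by their titles, are among 62 in the series, and no measured value entered their choice. The other 58 comprise 2 libraries of nonclassical monocytes, 8 of further sorted marrow monocytes named class 1 to class 4, and 48 of ER-Hoxb8 cells. The last are cultured myeloid progenitors, 24 clones in an immature and a monocytic state, that an estrogen-dependent Hoxb8 protein can hold immature. The labels name the subset, the tissue and the sort by flow cytometry for both groups. They give no genotype, strain, age, sex, treatment, gate or pooling of animals, so what limits either group as a model is not known. They do not say whether the 2 libraries of a group came from separate animals, and p-values here measure only the spread between these samples, which may be technical.

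Classical monocytes carry much Ly6C and the chemokine receptor CCR2, through which they leave the marrow and enter inflamed tissue. Nonclassical monocytes carry little Ly6C, depend on the nuclear receptor NR4A1 and patrol the walls of small vessels. Intermediate monocytes lie between these subsets in Ly6C. MHC class II molecules, known from antigen-presenting cells, show peptides of ingested proteins to helper T cells. C1q starts the classical complement pathway, and CD36 takes up lipids and dying cells.

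Intermediate monocytes held far more RNA of MHC class II genes, of the 3 C1q chains and of Cd36 than classical monocytes. They held far less of Ly6c2 and F13a1 and less of Ccr2. H2-Eb1, the beta chain of the class II molecule I-E, averaged 2355 ± 24.4 CPM in intermediate and 33.3 ± 2.99 CPM in classical libraries (CPM, counts scaled to library size, here by TMM factors; SD, n = 2 each). C1qb averaged 275 ± 38.1 CPM in intermediate and 0.967 ± 0.019 CPM in classical libraries, Cd36 153.7 ± 10.2 and 4.25 ± 0.110 CPM. Ly6c2 averaged 92.7 ± 28.6 CPM in intermediate and 2360 ± 215 CPM in classical libraries. These are bulk samples, so fewer cells of a type and less RNA per cell cannot be told apart.

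The intermediate libraries held 24.4 M and 22.1 M counts and the classical libraries 31.7 M and 21.2 M, with 14847 to 16808 genes detected in each. The intermediate libraries were less alike than the classical ones. Of 13944 tested genes, 2802 lay more than 4-fold apart in the intermediate pair and 282 in the classical pair. Intermediate library 1 lay closer to nonclassical library 1, with 1697 such genes, than to intermediate library 2. Intermediate library 2 and nonclassical library 2 had 3149 such genes. The reason was not tested. No 2 libraries were identical, and each pair within a group differed by more than sampling noise. Genes of hepatocytes, a list of 32 chosen after the values were seen, took 4.58% and 0.375% of the counts in the intermediate libraries, against 0.00924% and 4.25e-05% in the classical libraries. They took 2.47% and 0.00151% in the nonclassical libraries. Alb, the serum albumin gene, had 5418 and 418 CPM in the intermediate libraries, against 14.96 and 0 CPM in the classical libraries. Between the intermediate libraries these 32 genes stood 8.08 to 23.3 times apart (median 12.2), always with library 1 higher. They stood 1.67 to 2.33 times as high in intermediate library 1 as in nonclassical library 1 (median 1.88). All 32 lay higher in both intermediate than in both classical libraries, none passed in edgeR (0 at an unadjusted p under 0.05, 14 called by DESeq2), and their median log2 fold change was 9.08 (6.22 without intermediate library 1 and 15.7 without classical library 1).

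**Figure D1:**
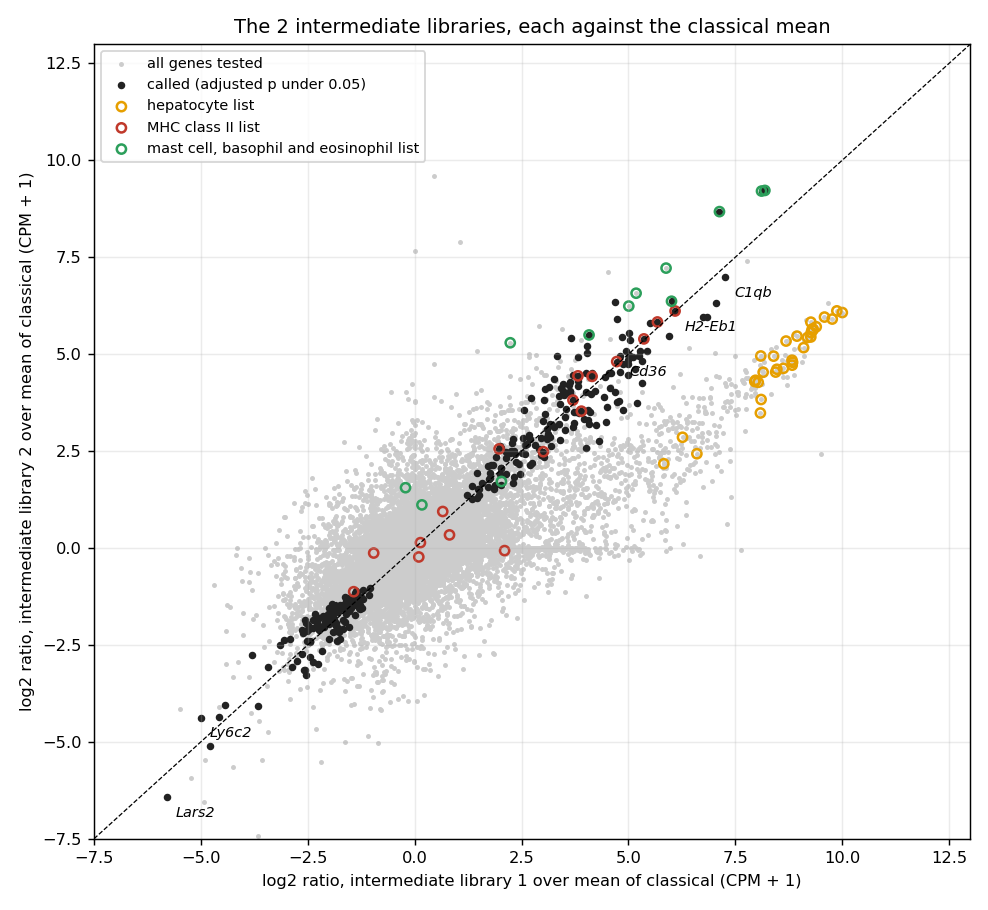
Each point is 1 of 13944 genes, placed by the log2 ratio of intermediate library 1 (x axis) and of intermediate library 2 (y axis) over the mean of the 2 classical libraries, after adding 1 to each CPM. Called genes (black) lie near the dashed line of equal ratios, since the test favours genes whose libraries within a group are alike. The hepatocyte list (orange), chosen after the values were seen, lies far below the line, with a median ratio of 12.2 between the intermediate libraries.

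Of the 13944 genes, 294 (2.11%) passed the test: 166 (1.19%) were higher and 128 (0.918%) were lower in intermediate than in classical monocytes (edgeR's quasi-likelihood test on the 6 libraries of the 3 subsets, Benjamini-Hochberg adjusted p under 0.05). Of these, 148 rose and 49 fell at least 4-fold. In all 294 called genes, both intermediate libraries lay on one side of both classical libraries. Such separation was common, in 8823 genes (63.3%): 4394 genes (31.5%) were separated higher and 4429 (31.8%) lower. It is given below as a description, since an exact permutation of 2 against 2 libraries cannot reach a 2-sided p below 0.333. Counts for the lists below are to be read beside these shares of all genes. The median log2 fold change over all genes was 0.12. How many genes passed rested on each library. Without intermediate library 1, 13 higher genes and 1 lower gene passed. Without intermediate library 2, classical library 1 or classical library 2, none did, although 3142, 1134 and 1318 genes had an unadjusted p under 0.05 in edgeR. Nonclassical library 2 is in neither group, but it enters the estimate of spread, the gene filter and the TMM factors. Without it, 15237 genes were tested in place of 13944, and fewer genes passed in each direction. Fewer genes also passed in each direction without nonclassical library 1. DESeq2 called 1759 genes higher and 1334 lower on all 6 libraries.

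**Figure D2:**
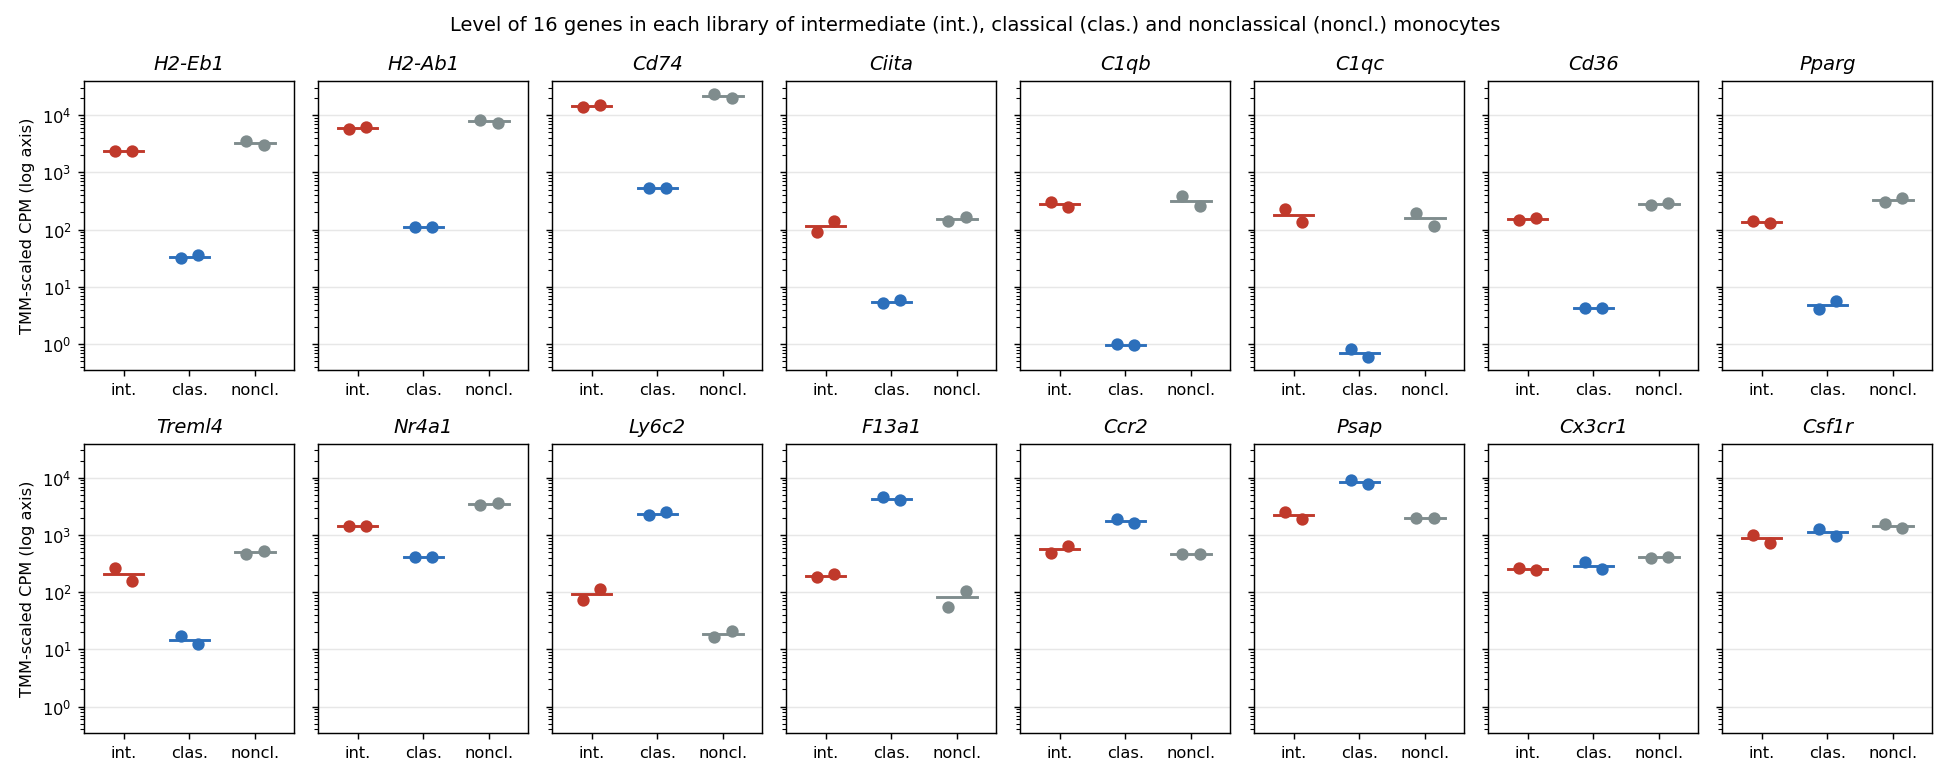
Level of 16 genes in each library of intermediate (red), classical (blue) and nonclassical (grey) monocytes, as TMM-scaled CPM on a log axis, with points for libraries and bars for means of 2. The 10 genes from H2-Eb1 to Nr4a1 lie higher in both intermediate than in both classical libraries, Ly6c2, F13a1, Ccr2 and Psap lie lower, and Cx3cr1 and Csf1r overlap.

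Most MHC class II genes were called higher, as were most B cell genes, given below. H2-Eb1 (ENSMUSG00000060586) had 2338 and 2373 CPM in the intermediate libraries, against 31.2 and 35.4 CPM in the classical libraries, a log2 fold change of 6.14 (SE 0.207, adjusted p = 0.00378). The intermediate libraries lay within a few percent of each other and far above both classical ones. H2-Ab1 and H2-Aa, the 2 chains of I-A, had 5644 and 6267 CPM, and 2795 and 2857 CPM, in intermediate libraries, against 109.3 and 109.1 CPM, and 67.5 and 66.5 CPM, in classical libraries. Their log2 fold changes were 5.77 (SE 0.198) and 5.40 (SE 0.195). Cd74, the invariant chain that escorts class II molecules to the endosome, had 13995 and 14813 CPM in intermediate libraries, against 527 and 528 CPM in classical libraries. Its log2 fold change was 4.77 (SE 0.186, adjusted p = 0.004194). Ciita, the coactivator that switches on class II genes, had 90.5 and 139.6 CPM in intermediate libraries, against 5.19 and 5.77 CPM in classical libraries, and rose by 4.39 (SE 0.308). The coactivator, the invariant chain and the 3 classical chains were thus all called higher, and in none of them did the groups overlap.

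The genes that load peptides onto class II molecules moved less evenly. H2-Oa and H2-Ob, the chains of the modulator H2-O, rose by 4.43 (SE 0.258) and 4.85 (SE 0.336). H2-DMb1 and H2-DMb2, beta chains of the peptide editor H2-M, rose by 2.31 (SE 0.246) and 2.90 (SE 0.359). H2-DMa, its alpha chain, had 373.9 and 455.5 CPM in intermediate libraries, against 221.8 and 251.5 CPM in classical libraries, and did not pass (0.81, SE 0.206, adjusted p = 0.117). Ifi30, a lysosomal thiol reductase that opens proteins for digestion, had 147.3 and 181.4 CPM in intermediate libraries, against 430 and 365 CPM in classical libraries. It lay lower without overlap and just missed the threshold (−1.27, SE 0.193, adjusted p = 0.0516). Ctss, the protease cathepsin S that trims the invariant chain, overlapped between the groups, with 1461 and 1163 CPM in intermediate and 1479 and 1253 CPM in classical libraries. H2-Eb2 was counted in 1 intermediate library, at 3.50 CPM against 0 in the other. Cd83, which stabilises class II at the surface, had 664 and 513 CPM in intermediate libraries, against 48.2 and 38.9 CPM in classical libraries (3.76, SE 0.274).

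Of the 17 tested genes of class II presentation, 10 rose and none fell, with 1.19% of all genes called higher. Separation held for 13 higher and 1 lower, and the median log2 fold change was 3.76. Without intermediate library 1, 4 of the 17 passed and 13 were separated higher, with a median of 2.62. Markers of B cells and dendritic cells, which also express class II, moved in the same direction. The summed level of 20 B cell genes was 732 and 731 CPM, here of the library total without TMM scaling, in intermediate libraries, against 48.1 and 48.7 in classical libraries. That of 18 dendritic cell genes was 1269 and 1725 in intermediate libraries, against 246 and 277 in classical libraries. Their part in the class II values was not tested.

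**Figure D3:**
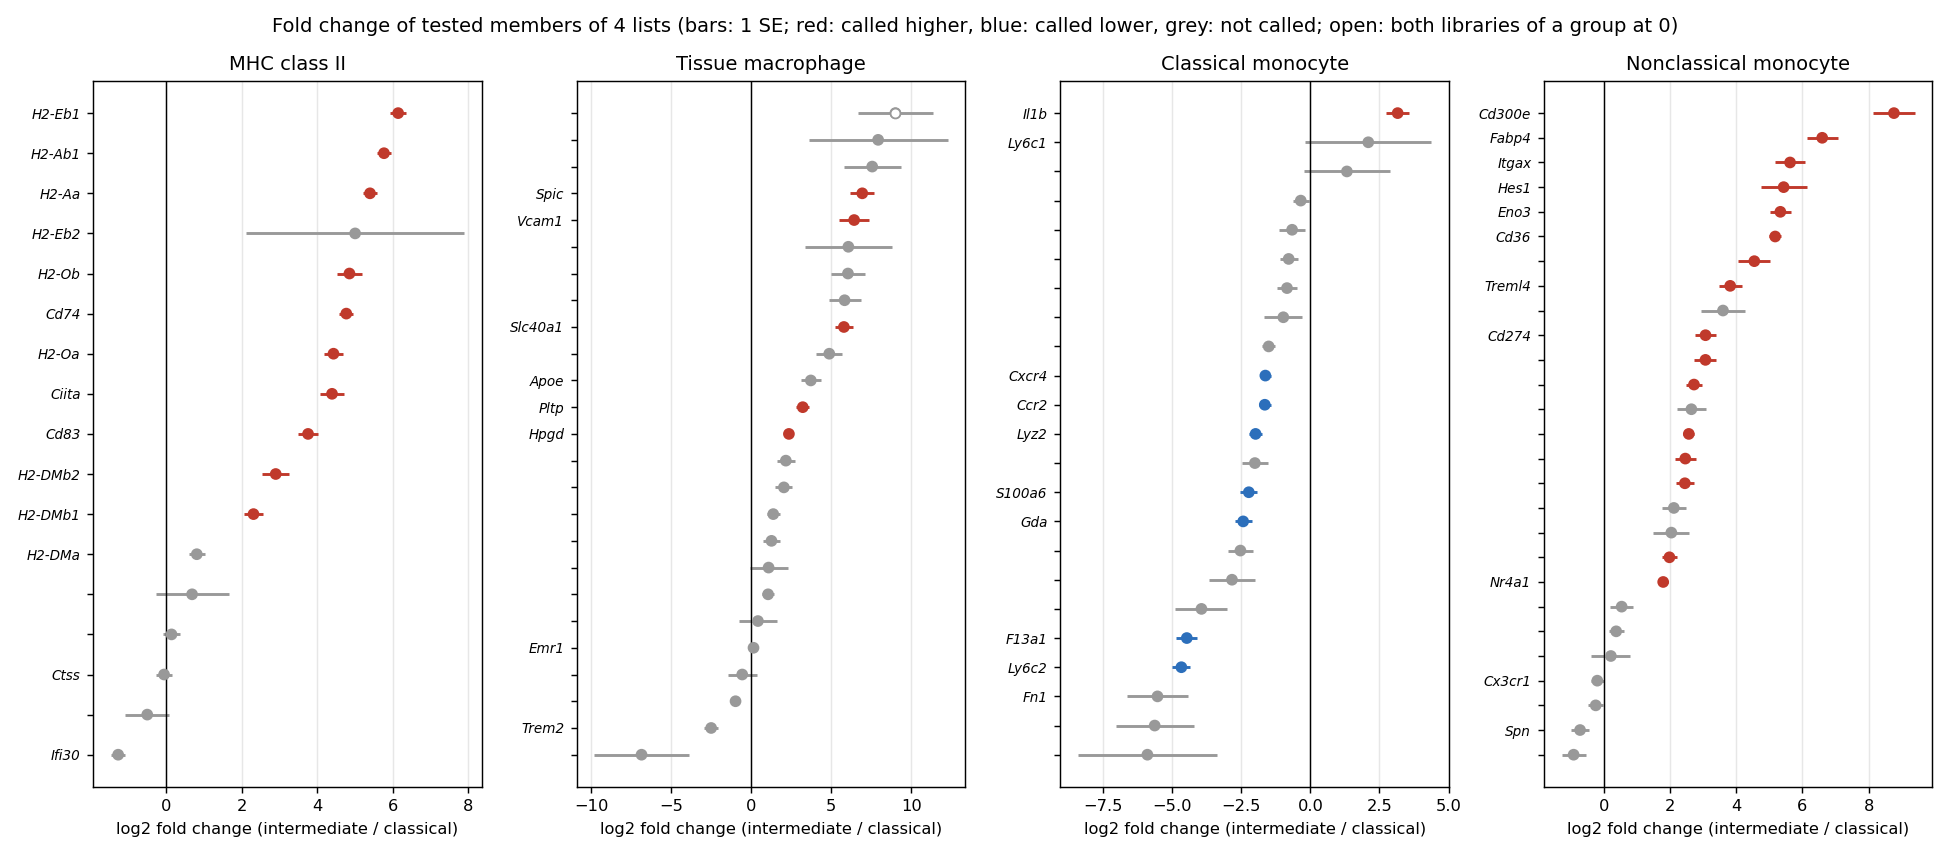
Log2 fold change of intermediate over classical monocytes (x axis, bars of 1 SE) for tested members of 4 lists (1 classical marker is not drawn, and only genes named in the text are labelled), with members called higher in red, called lower in blue and not called in grey. Open points have both libraries of a group at 0, so their fold change depends on the prior count. Of 17 class II genes 10 are red, and of 24 classical monocyte genes 7 are blue.

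Promoters are shown for 3 of the class II genes that rose and for C1qb, because class II promoters share the elements through which CIITA is recruited. The sequences are from RefSeq on GRCm38.p6, a later build than that of the counts, from 250 bases before to 50 bases after the start, read 5′ to 3′ on the strand of the gene. Capitals mark the CCAAT box (CCAAT on either strand, so ATTGG on the other) and the core of the X box (AG, 2 bases of any kind, AC, 1 of any kind and GATG, on either strand), in H2-DMb1 with the 3 bases of the full X box before it.
H2-Eb1 (chr17:34305617-34305916, + strand): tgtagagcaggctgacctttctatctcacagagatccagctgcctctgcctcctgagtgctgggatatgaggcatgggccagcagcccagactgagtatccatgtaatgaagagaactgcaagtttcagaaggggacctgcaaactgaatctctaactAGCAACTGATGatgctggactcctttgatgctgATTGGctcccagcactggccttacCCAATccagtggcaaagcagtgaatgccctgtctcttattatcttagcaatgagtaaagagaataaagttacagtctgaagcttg
H2-Aa (chr17:34287774-34288073, − strand): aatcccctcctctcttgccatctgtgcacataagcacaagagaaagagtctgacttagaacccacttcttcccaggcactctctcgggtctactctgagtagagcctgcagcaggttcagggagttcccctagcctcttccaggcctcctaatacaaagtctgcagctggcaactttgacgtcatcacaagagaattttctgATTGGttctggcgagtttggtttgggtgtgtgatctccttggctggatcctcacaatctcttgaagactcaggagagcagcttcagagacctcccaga
H2-DMb1 (chr17:34152941-34153240, + strand): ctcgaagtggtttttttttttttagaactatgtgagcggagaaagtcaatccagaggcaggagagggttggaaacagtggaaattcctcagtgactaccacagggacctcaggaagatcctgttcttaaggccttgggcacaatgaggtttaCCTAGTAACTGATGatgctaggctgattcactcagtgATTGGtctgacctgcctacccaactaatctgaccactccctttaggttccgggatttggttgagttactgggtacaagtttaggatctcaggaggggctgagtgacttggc
C1qb (chr4:136886151-136886450, − strand): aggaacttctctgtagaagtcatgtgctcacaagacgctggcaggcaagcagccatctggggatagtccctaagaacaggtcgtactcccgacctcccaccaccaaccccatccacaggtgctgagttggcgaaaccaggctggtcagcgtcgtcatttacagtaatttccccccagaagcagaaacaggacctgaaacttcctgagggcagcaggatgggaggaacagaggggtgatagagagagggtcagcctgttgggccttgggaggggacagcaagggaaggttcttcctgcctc
In H2-Eb1 and H2-DMb1 the X core stood 22 and 23 bases before the next CCAAT box. A CCAAT box was found in the promoters of all 8 class II genes of the table (for H2-DMa in 1 of its 2 promoters) and in 37.4% of 32851 promoters of the same length. The X core was found in H2-Eb1, H2-Eb2, H2-DMb1 and H2-Oa, and in 0.968% of all promoters. The full X box, which adds C and 2 bases of any kind before the core, was found in H2-DMb1 alone among them and in 0.237% of all promoters. The core was searched after the promoters had been seen. These matches describe letters and not binding. H2-DMa, which did not pass, held a CCAAT box, and H2-Aa, which rose, held no X core in this window.

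The 3 chains of C1q rose together. C1qb (ENSMUSG00000036905) had 302 and 248 CPM in the intermediate libraries, against 0.980 and 0.953 CPM in the classical libraries, a log2 fold change of 8.14 (SE 0.330, adjusted p = 0.004235). C1qc had 225.6 and 136.4 CPM in intermediate libraries, against 0.822 and 0.590 CPM in classical libraries, and rose by 7.98 (SE 0.529). C1qa had 168.2 and 96.1 CPM in intermediate libraries, against 0.316 and 0.817 CPM in classical libraries, and rose by 7.88 (SE 0.788). Each intermediate library held over 100 times the classical level of C1qb, and intermediate library 1 stood 1.22 times as high as library 2. The nonclassical library that holds 0.00151% of hepatocyte counts had 261.5 CPM of C1qb. That library lies outside the groups compared here, and the source of the C1qb counts was not tested. Cfp, properdin, which stabilises the alternative convertase, was the component that fell, with 192.2 and 208.2 CPM in intermediate and 459 and 429 CPM in classical libraries (−1.15, SE 0.161). C3, the central component, varied widely between intermediate libraries and did not pass, with 487 and 80.8 CPM in intermediate and 1534 and 1195 CPM in classical libraries. Of 14 tested complement components, 3 rose and 1 fell. Their median log2 fold change was 6.14, and −0.18 without intermediate library 1.

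Several genes of tissue macrophages rose beside C1q. Slc40a1, the iron exporter ferroportin, had 101.5 and 71.4 CPM in intermediate libraries, against 1.39 and 1.73 CPM in classical libraries (5.79, SE 0.550). Spic, the transcription factor of red pulp macrophages, had 40.0 and 60.3 CPM in intermediate libraries, against 0.190 and 0.636 CPM in classical libraries (6.94, SE 0.754). Vcam1, an adhesion molecule also found on marrow macrophages, had 46.4 and 39.7 CPM in intermediate libraries, against 0.190 and 0.817 CPM in classical libraries (6.43, SE 0.934). Pltp, which transfers phospholipids, and Hpgd, which breaks down prostaglandins, rose by 3.22 (SE 0.391) and 2.36 (SE 0.256). These 5 were the called members among 25 tested, and none fell. Of the 25, 17 were separated higher and 3 lower, with a median log2 fold change of 2.36. Without intermediate library 1, none passed and 17 were separated higher.

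Not all macrophage genes moved. Emr1, a surface receptor used to mark macrophages, overlapped between groups, with 242.2 and 141.9 CPM in intermediate and 195.7 and 152.6 CPM in classical libraries. Apoe, the lipid carrier, was higher in both intermediate libraries but uneven, at 10207 and 3138 CPM in intermediate libraries, against 610.2 and 400.03 CPM in classical libraries (3.72, SE 0.638, adjusted p = 0.0610). Trem2, a lipid-sensing receptor, had 6.17 and 10.5 CPM in intermediate libraries, against 49.6 and 44.9 CPM in classical libraries (−2.51, SE 0.419, adjusted p = 0.0606). Genes of Kupffer cells, the macrophages of the liver, summed to 101.2 and 59.2 CPM of the library total over 7 genes in intermediate libraries, against 2.05 and 1.61 in classical libraries. Of these 7, chosen after the values were seen, Fcna, a ficolin, was called higher, with 36.7 and 37.0 CPM in intermediate and 1.39 and 1.32 CPM in classical libraries (4.76, SE 0.390). Clec4f, their defining lectin, had 15.4 and 5.48 CPM in intermediate libraries and 0 in both classical libraries. The Kupffer cell sum was also high in other marrow populations, at 323.8 and 193.8 CPM of the library total in class 4. It was 63.1 and 63.6 in class 1, 47.02 and 34.55 in nonclassical, 4.14 and 3.6 in class 2 and 5.41 and 3.08 in class 3 libraries. The part of macrophages, in the sort or from liver, in the C1q values was not tested.

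Cd36 (ENSMUSG00000002944) had 146.5 and 160.9 CPM in the intermediate libraries, against 4.33 and 4.18 CPM in the classical libraries, a log2 fold change of 5.17 (SE 0.189, adjusted p = 0.00378). The libraries of each group lay close together and the groups far apart. Pparg, the fatty acid receptor that drives Cd36 and Fabp4 in macrophages, had 141.2 and 131.5 CPM in intermediate libraries, against 4.11 and 5.58 CPM in classical libraries (4.81, SE 0.249). Fabp4, a fatty acid carrier, had 60.2 and 51.8 CPM in intermediate libraries, against 0.601 and 0.545 CPM in classical libraries (6.596, SE 0.465). Soat1, which esterifies cholesterol for storage, moved the other way, at 47.5 and 31.8 CPM in intermediate and 243.4 and 258.2 CPM in classical libraries (−2.66, SE 0.270). These 4 were the calls among 23 genes of lipid uptake, storage and efflux. Of the 23, 7 were separated higher and 11 lower, against 31.5% and 31.8% of all genes. The median of the list was −0.36 (−0.212 without intermediate library 1). Npc2, which moves cholesterol out of lysosomes, was the most counted of those that did not pass, with 253.1 and 328.5 CPM in intermediate and 689 and 698 CPM in classical libraries (−1.25, SE 0.190, adjusted p = 0.0517).

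Markers of nonclassical monocytes were mostly higher in intermediate than in classical libraries. Nr4a1 had 1417 and 1464 CPM in intermediate libraries, against 419 and 416 CPM in classical libraries, and rose by 1.79 (SE 0.152, adjusted p = 0.0188). Treml4, a receptor that helps take up dying cells, had 260.8 and 155.8 CPM in intermediate libraries, against 17.01 and 12.6 CPM in classical libraries (3.81, SE 0.345). Cd300e, an activating receptor of monocytes, had 143.2 and 77.5 CPM in intermediate libraries, against 0.190 and 0.318 CPM in classical libraries (8.77, SE 0.631). Itgax, the integrin chain CD11c, rose by 5.62 (SE 0.448), Eno3, an enolase of muscle, by 5.33 (SE 0.316), and Cd274, the ligand PD-L1, by 3.07 (SE 0.319). Hes1, a target of Notch signalling, rose by 5.43 (SE 0.696). In each of these 7 genes both intermediate libraries lay above both classical ones. Cx3cr1, the fractalkine receptor, overlapped, with 260.5 and 245.8 CPM in intermediate and 333.3 and 251.5 CPM in classical libraries. Spn, the surface mucin CD43, lay lower in intermediate libraries without passing, at 66.5 and 82.4 CPM against 112.8 and 134.1 CPM in classical libraries. Of 27 markers, 16 rose and none fell. Of the 27, 22 were separated higher and 2 lower, with a median log2 fold change of 2.56, and without intermediate library 1, 1 passed and 23 were separated higher.

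Most markers of classical monocytes were lower. Ly6c2 had 72.5 and 113.0 CPM in the intermediate libraries, against 2208 and 2512 CPM in the classical libraries, a log2 fold change of −4.67 (SE 0.325, adjusted p = 0.0134). Ly6c2 has a near-identical neighbour, Ly6c1, so reads that match both could be miscounted or lost. Ly6c1, also a listed marker, did not pass, with log2 fold changes from 0.98 to 2.69 over 15 fits. F13a1, the A chain of coagulation factor XIII, had 181.3 and 209.2 CPM in intermediate libraries, against 4588 and 4086 CPM in classical libraries (−4.47, SE 0.382). Ccr2 had 483 and 641 CPM in intermediate libraries, against 1920 and 1607 CPM in classical libraries (−1.65, SE 0.213). Cxcr4, the receptor that retains cells in the marrow, fell by 1.63 (SE 0.197), Lyz2, lysozyme, by 1.98 (SE 0.240), Gda, guanine deaminase, by 2.43 (SE 0.308), and S100a6 by 2.23 (SE 0.306), all on the log2 scale. In each of the 7 genes that fell, both intermediate libraries lay below both classical ones, with the widest gaps in Ly6c2 and F13a1.

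Fn1, fibronectin, showed a wide gap but also a wide spread, with 126.3 and 39.6 CPM in intermediate and 4535 and 3150 CPM in classical libraries (−5.53, SE 1.09, adjusted p = 0.0757). Il1b, the cytokine interleukin-1 beta, was the 1 listed gene that rose, with 142.2 and 137.5 CPM in intermediate and 21.7 and 9.63 CPM in classical libraries (3.16, SE 0.424). Of 24 classical markers, 7 fell and 1 rose, while 0.918% of all genes were called lower. Of the 24, 20 were separated lower and 2 higher, with a median of −1.82. Without intermediate library 1 none passed, and 22 were separated lower.

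Genes of the lysosome and of the phagocyte oxidase lay lower as groups, with few calls. Psap, which encodes the saposins that help digest sphingolipids, had 2501 and 1885 CPM in intermediate libraries, against 9303 and 7741 CPM in classical libraries (−1.96, SE 0.213). Grn, progranulin, had 480.8 and 558 CPM in intermediate libraries, against 1431 and 1419 CPM in classical libraries (−1.46, SE 0.188). Atp6v1a, a subunit of the proton pump that acidifies lysosomes, fell by 1.92 (SE 0.158) on the log2 scale. These were the 3 calls among 26 lysosomal genes, of which 18 were separated lower and 2 higher, with a median of −0.575. Of the 6 oxidase genes none passed in edgeR, although 5 had an unadjusted p under 0.05 and DESeq2 called 5 lower, and 5 were separated lower, with a median of −0.92. Cybb, the catalytic chain, had 1045 and 899.5 CPM in intermediate libraries, against 2453 and 1995 CPM in classical libraries (−1.19, SE 0.185, adjusted p = 0.0524). Laptm5 and Ctsb, the most counted lysosomal genes that did not pass, overlapped between the groups.

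Among receptors for growth factors and microbes, calls went both ways. Flt3, the receptor of dendritic cell progenitors, had 140.2 and 147.6 CPM in intermediate libraries, against 23.4 and 21.97 CPM in classical libraries (2.67, SE 0.171). Kit, the receptor of stem cells and mast cells, had 31.4 and 71.9 CPM in intermediate libraries, against 0.285 and 0.136 CPM in classical libraries (7.88, SE 0.826). Il6ra, Csf2rb and Tnfrsf1a, receptors for interleukin-6, for the GM-CSF family and for TNF, fell by 2.40 (SE 0.289), 1.59 (SE 0.235) and 1.32 (SE 0.166) on the log2 scale. Csf1r, the receptor monocytes need to survive, overlapped, with 1003 and 734.7 CPM in intermediate and 1261 and 952.7 CPM in classical libraries. Cd14, the coreceptor for bacterial lipopolysaccharide, had 58.8 and 65.4 CPM in intermediate libraries, against 248.1 and 197.8 CPM in classical libraries, and fell by 1.84 (SE 0.206). It was the 1 call among 26 genes of pattern recognition. Of the 26, 13 were separated lower and 5 higher, against 31.8% and 31.5% of all genes.

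Genes of cell division lay lower in intermediate monocytes. Mki67, the proliferation antigen Ki-67, had 153.1 and 182.3 CPM in intermediate libraries, against 430.5 and 465 CPM in classical libraries (−1.42, SE 0.202, adjusted p = 0.0467). Top2a, the topoisomerase of dividing cells, had 327 and 295 CPM in intermediate libraries, against 677 and 697 CPM in classical libraries (−1.14, SE 0.167, adjusted p = 0.0476). Aurkb, a mitotic kinase, fell by 1.28 (SE 0.173) on the log2 scale. Of 25 genes, 3 fell and none rose, and 20 were separated lower and 1 higher, with a median of −0.93. The replication genes Mcm2 and Mcm6 overlapped between the groups. Without intermediate library 1 none of the 25 passed, and 20 were separated lower and 4 higher.

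Chemokines and their receptors changed in a few members. Ccr7, the receptor that guides cells to lymph nodes, had 119.1 and 93.3 CPM in intermediate libraries, against 2.12 and 1.41 CPM in classical libraries (5.90, SE 0.467). S1pr1, which guides exit into blood and lymph, rose by 5.20 (SE 0.455) and Ccrl2, which binds chemerin, by 1.52 (SE 0.177). Ccl4 and Ccl5, chemokines that draw leukocytes, rose by 2.95 (SE 0.298) and 4.47 (SE 0.426), and Cxcl16, a scavenger receptor and chemokine, by 2.45 (SE 0.321). Of 24 chemokines and cytokines 4 rose and none fell, with 16 separated higher and 5 lower. Of the 25 immediate early and stress genes, 2 rose, Nr4a1 and Myc, and 17 were separated higher, with a median of 1.005. Without intermediate library 2 that median was 0.523, and without classical library 1 it was 0.667. Fos, the most counted, overlapped, with 3245 and 8370 CPM in intermediate and 3743 and 6442 CPM in classical libraries. Of 25 interferon-stimulated genes none passed in edgeR, 4 had an unadjusted p under 0.05 and DESeq2 called 3 lower. Of these 25, 5 were separated higher and 10 lower, against 31.5% and 31.8% of all genes. Of 15 class I genes, H2-Q6 and H2-Q7 rose, 2 near-identical copies whose shared reads could be miscounted or lost. H2-D1 had 4530 and 3778 CPM in intermediate and 3638 and 3416 CPM in classical libraries and did not pass in edgeR (adjusted p = 0.520).

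Markers of other marrow cells were also higher in the intermediate libraries. Mcpt8, the protease of mouse basophils, had 933 and 1992 CPM in intermediate libraries, against 2.75 and 1.998 CPM in classical libraries (9.26, SE 1.11, adjusted p = 0.0345). Prss34, another basophil protease, had 2410 and 4924 CPM in intermediate libraries, against 10.6 and 3.86 CPM in classical libraries (8.98, SE 1.09). Cpa3, carboxypeptidase of mast cells and basophils, had 198.5 and 582 CPM in intermediate libraries, against 0.759 and 0.0908 CPM in classical libraries (9.77, SE 1.41). These 3 had the largest changes that the naming rule took, and in each intermediate library 2 held the higher value. Of 12 tested genes of mast cells, basophils and eosinophils, 5 rose, with Gata2 and Hdc beside those above, and 11 were separated higher.

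B cell genes were even between the intermediate libraries. Cd79a, a chain of the B cell receptor complex, had 162.8 and 143.3 CPM in intermediate libraries, against 4.30 and 3.27 CPM in classical libraries (5.33, SE 0.260, adjusted p = 0.00768). Ms4a1, the antigen CD20, had 63.4 and 52.3 CPM in intermediate libraries, against 0.980 and 1.63 CPM in classical libraries (5.47, SE 0.361). Of 20 B cell genes 13 rose and none fell, Pax5 and Ebf1, transcription factors of the lineage, among them. Of 17 dendritic cell genes, 8 rose, among them Zbtb46, a transcription factor of conventional dendritic cells, by 5.93 (SE 0.575), and Cd209a, a lectin, by 3.86 (SE 0.381). Kmo and Dpp4 rose by 3.12 (SE 0.232) and 1.65 (SE 0.239). Ly6d and Spib were the calls among 14 genes of plasmacytoid dendritic cells, and Lck and Ccl5 among 20 of T and NK cells. Of these 20, 10 were separated higher and 0 lower. Their summed level was 157.9 and 619.4 CPM of the library total in intermediate libraries, against 9.217 and 12.1 in classical libraries. Cd3e and Cd3d stayed at or under 1.04 CPM in both intermediate libraries.

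Granule and red cell genes were less even. Mpo, myeloperoxidase, had 2856 and 7658 CPM in intermediate libraries, against 212.7 and 324 CPM in classical libraries, and did not pass (4.29, SE 0.822, adjusted p = 0.0734). All 10 tested primary granule genes were separated higher, 1 of them, Hdc, was called, and the median was 3.45. Of 19 neutrophil genes none passed in edgeR, while 15 had an unadjusted p under 0.05 and DESeq2 called 10 higher and 4 lower. They split into 13 separated higher and 6 lower, and the summed level of the list was 5920 and 5874 CPM of the library total in intermediate and 6444 and 5843 in classical libraries. Ngp, a secondary granule protein, had 2014 and 1713 CPM in intermediate libraries, against 107.7 and 289.5 CPM in classical libraries (3.23, SE 1.02, adjusted p = 0.165). Alas2, the heme enzyme of erythroid cells, was the 1 call among 14 erythroid genes, and Hbb-b1, a beta globin, had 256.9 and 28.6 CPM in intermediate and 1.80 and 3.63 CPM in classical libraries. Pf4, of platelets, Cxcl12, a chemokine of marrow stroma, and Sox4, of progenitors, rose by 5.19 (SE 0.719), 6.98 (SE 0.387) and 3.47 (SE 0.426). Whether these genes came from other cells in the sort was not tested.

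**Figure D4:**
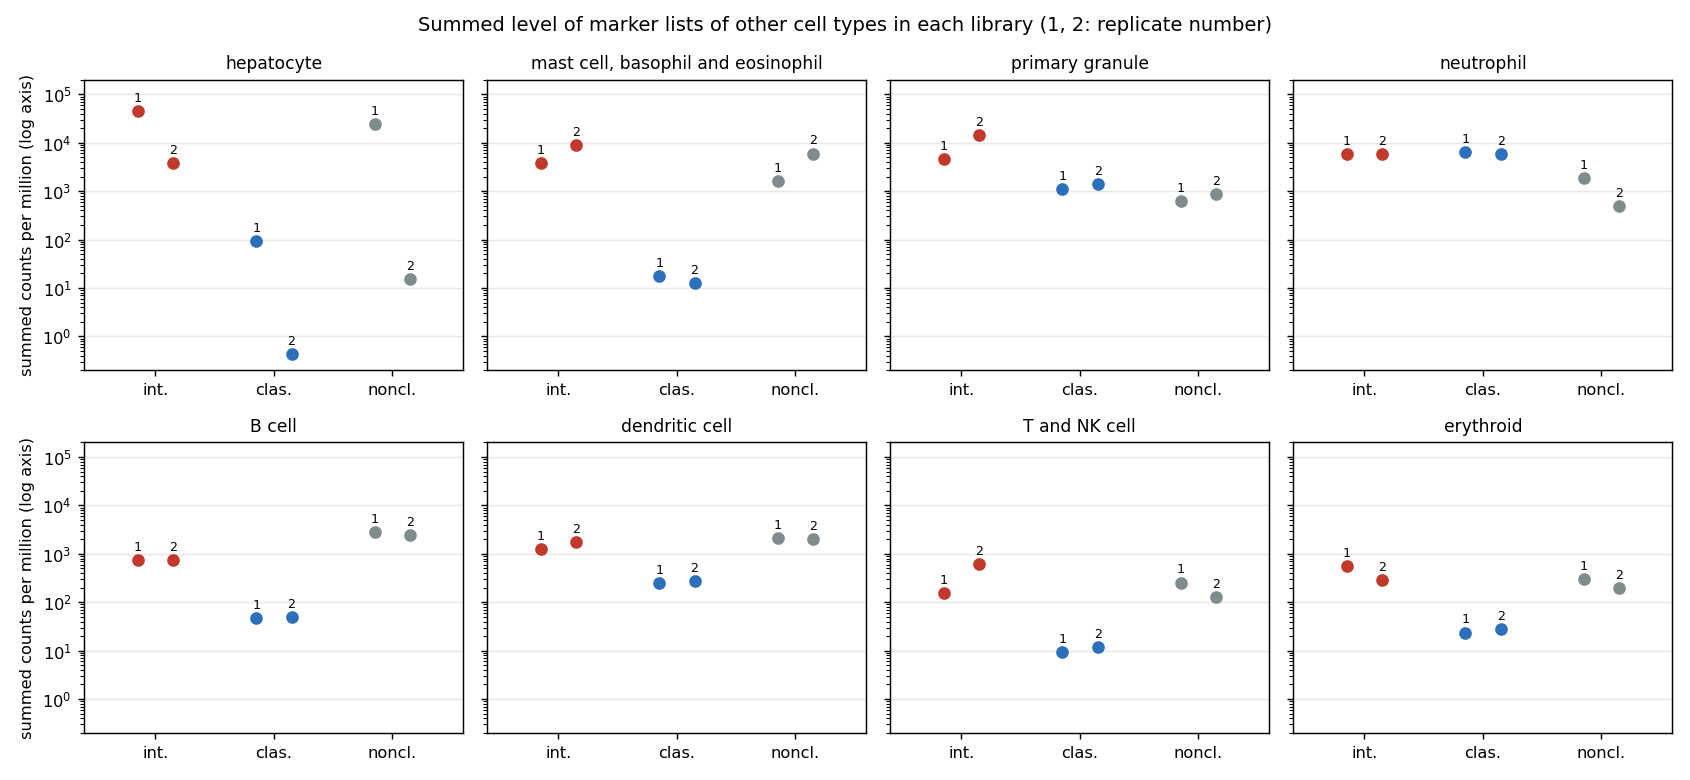
Summed level of 8 marker lists in each library of intermediate (red), classical (blue) and nonclassical (grey) monocytes, in CPM of the library total on a log axis, with the replicate number above each point. The B cell sum is 732 and 731 in the intermediate libraries and 48.1 and 48.7 in the classical ones, while the hepatocyte sum is 45800 and 3748 in the intermediate libraries.

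Other genes with large changes had varied roles. Nedd4, a ubiquitin ligase, had 150.9 and 107.9 CPM in intermediate libraries, against 1.11 and 1.82 CPM in classical libraries (6.47, SE 0.509). Cd63, a tetraspanin of granules and endosomes, rose by 6.01 (SE 0.790) and Ccnd2, cyclin D2, by 5.91 (SE 0.466). Lars2, the mitochondrial leucyl-tRNA synthetase, had 297.9 and 193.5 CPM in intermediate libraries, against 13523 and 19776 CPM in classical libraries, the widest fall among the genes the rule took (−6.08, SE 0.443). Over the 14 primary libraries Lars2 was uneven within populations too, with 9526 and 1866 CPM of the library total in class 2. Mir5115, counted as a gene, fell by 3.91 (SE 0.280), and its identity as a mature microRNA cannot be read from such counts. Gm15564, a predicted gene that the naming rule skipped, had log2 fold changes from −5.96 to −5.43 over 16 fits. The source of the reads counted at Lars2, Mir5115 and Gm15564 was not tested. Clec5a, a lectin receptor of myeloid cells, had 20.6 and 13.7 CPM in intermediate libraries, against 121.8 and 136.8 CPM in classical libraries (−2.92, SE 0.307). Capg, which caps actin filaments, and Flna, filamin A, fell by 2.80 (SE 0.271) and 2.45 (SE 0.187). Actb, beta actin, often taken as constant, had 1865 and 2322 CPM in intermediate libraries, against 7195 and 7061 CPM in classical libraries (−1.77, SE 0.205). Flna and Actb were singled out after their values were seen. The other falls taken by the rule, from −3.31 to −2.72, were those of Met, C1galt1c1, Gapt, Atrnl1, Slfn1, Tnfaip2, Trio, Rarg and Pi16.

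Against nonclassical monocytes, no gene differed in edgeR at the threshold, while 1710 genes had an unadjusted p under 0.05 and DESeq2 called 1205. The values that follow are given side by side, since both subsets were compared with the same classical libraries. H2-Eb1 had 2338 and 2373 CPM in intermediate libraries, against 3482 and 2988 CPM in nonclassical libraries (difference −0.46, SE 0.166, adjusted p = 0.376). Cd36 had 146.5 and 160.9 CPM in intermediate libraries, against 264.1 and 286.6 CPM in nonclassical libraries (−0.84, SE 0.159, adjusted p = 0.251). C1qb overlapped, with 378 and 261.5 CPM in nonclassical libraries. Ly6c2 lay higher without overlap, at 72.5 and 113.0 CPM in intermediate and 16.4 and 21.2 CPM in nonclassical libraries (2.30, SE 0.292, adjusted p = 0.232). Nr4a1 lay lower, at 1417 and 1464 CPM in intermediate and 3277 and 3634 CPM in nonclassical libraries (−1.26, SE 0.150, adjusted p = 0.220). Mki67 lay higher, at 153.1 and 182.3 CPM in intermediate and 42.2 and 53.0 CPM in nonclassical libraries (1.82, SE 0.204, adjusted p = 0.220). Cd79a lay lower, at 162.8 and 143.3 CPM in intermediate and 706 and 587 CPM in nonclassical libraries (−2.08, SE 0.224, adjusted p = 0.220). For H2-Eb1, Cd36, Ly6c2, Nr4a1, Mki67 and Cd79a the intermediate values thus lay between those of both other subsets, while C1qb overlapped with nonclassical libraries. Of the 25 cell division genes, 21 were separated higher in intermediate than in nonclassical libraries, with 17.6% of all genes so separated, and of the 27 nonclassical markers 24 were separated lower, with 19.6% of all genes. Of the 17 class II genes 11 were separated lower and 1 higher, and of the 20 B cell genes 18 lower and 0 higher. Of the 294 genes called between intermediate and classical monocytes, 263 were also called between nonclassical and classical monocytes, in the same direction.

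The 3 markers of intermediate monocytes were all high in nonclassical monocytes too, as given above. Among class 1 to class 4 they were not high in the same populations. H2-Eb1, at 2294 and 2591 CPM of the library total in intermediate and 31.1 and 36.9 in classical monocytes, stood at 1212 and 1248 in class 1 and 372.0 and 588 in class 2. It stood at 38.8 and 13.6 in class 3 and 381 and 390 in class 4. C1qb, at 296.1 and 270.8 in intermediate and 0.978 and 0.993 in classical monocytes, was near the intermediate level in class 1 (341 and 277) and class 4 (299 and 233.5) and low in class 2 (5.83 and 5.90) and class 3 (10.9 and 7.49). Cd36 reached 37.6 and 92.0 in class 2 and stayed between 1.72 and 25.3 in the other classes, against 143.7 and 175.8 in intermediate monocytes. In the 24 monocytic ER-Hoxb8 libraries, C1qb ran from 1.57 to 262.9 (median 32.0), H2-Eb1 from 0 to 4.31 (median 0.0429) and Cd36 from 0 to 6.10 (median 0.330). No test was made against the class 1 to class 4 or ER-Hoxb8 libraries.

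**Figure D5:**
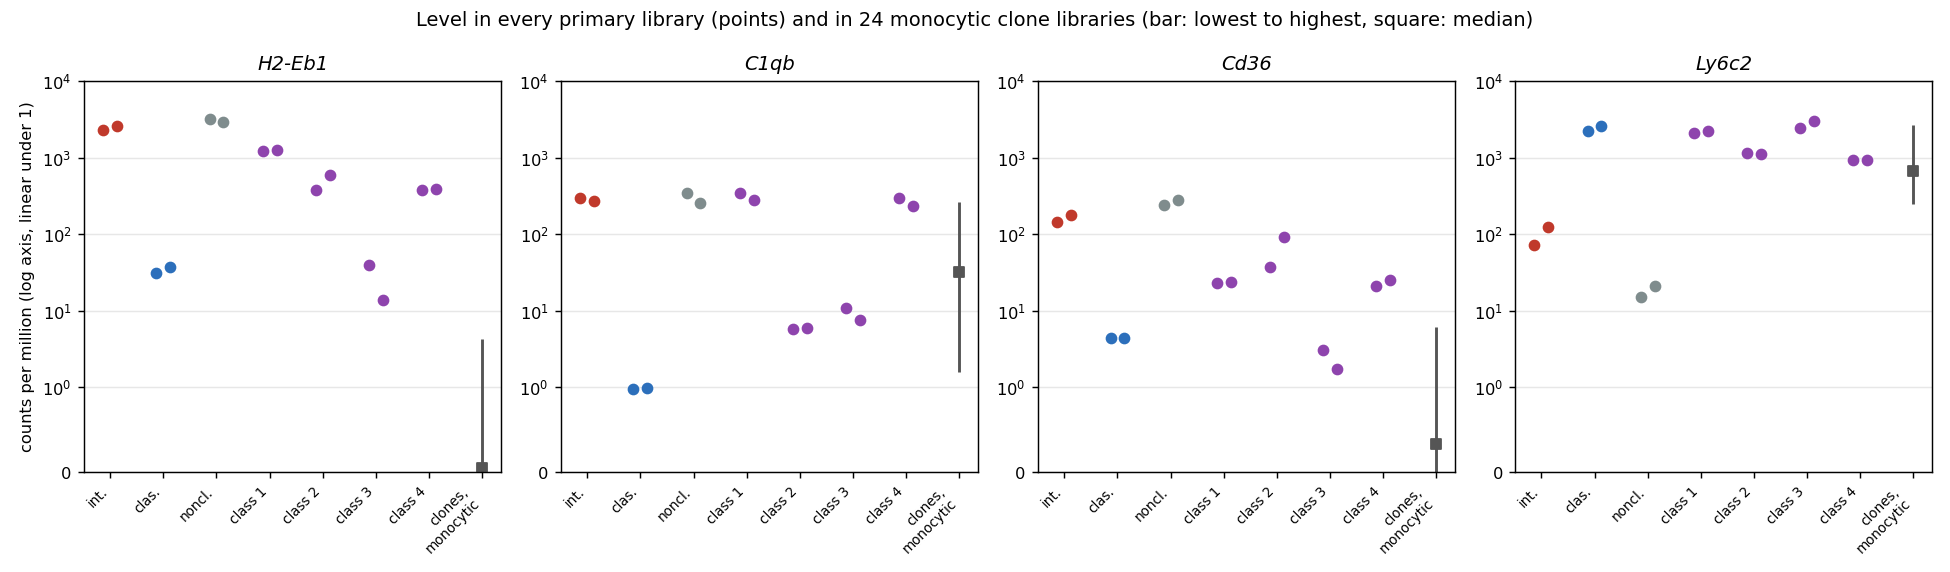
Level of H2-Eb1, C1qb, Cd36 and Ly6c2, as CPM of the library total, in each primary library (points, on a log axis that is linear under 1) and in the 24 monocytic clone libraries (bar from lowest to highest, square at the median). C1qb is at or above 233.5 in intermediate, nonclassical, class 1 and class 4 monocytes, while Cd36 exceeds 100 only in the intermediate and nonclassical libraries.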

How the data were processed

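The authors deposited raw gene counts, whole numbers for 37620 genes. The tools named are STAR (2.7.3a) and HTSeq (0.6.0), with the build mm9, per the submitters' processing notes. The strand setting is not given in the sources used here. Per the labels' protocols, total RNA of sorted cells was made into libraries with a commercial kit. A single column (1) that matched no sample was not used.

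From these counts, the 6 libraries of the 3 subsets were fitted together with edgeR 4.0.16 (R 4.3.3) by its quasi-likelihood test, with TMM factors, filterByExpr at a minimum count of 10 and Benjamini-Hochberg adjustment over 13944 genes. The nonclassical libraries entered to estimate the spread, and so also entered the filter and the TMM factors. Standard errors are the absolute log2 fold change over the square root of F. Genes were called at an adjusted p under 0.05. Groups were called separated where both libraries of one lay beyond both of the other in TMM-scaled CPM. List sums and levels in other populations are CPM of the library total. Library totals ran from 21.2 M to 31.7 M in the 4 libraries, and 2 libraries a group limit the precision. The fit was tested on simulated data.

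Named genes were H2-Eb1, C1qb, Cd36 and 7 subset markers, up to 15 genes a direction with the largest called changes whose mean log2 CPM reached 3, and of each list called members and the most counted member that did not pass. Gene lists and members were chosen with earlier results of these data known, and the hepatocyte and Kupffer cell lists after the values were seen. Genes outside this rule, such as Alb, Trem2, Flna and Actb, were chosen after their values were seen. Alternatives used DESeq2 1.42.0, limma 3.58.1, other filters, other sets of libraries and a replicate block. Some items of these lists are not reported here.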

Additional observations from a re-analysis of the deposited data

Results flagged for a closer look

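In 3 of the named genes every intermediate library lay above both classical libraries and every nonclassical library below them. The test of this difference between the subsets is the contrast of intermediate with nonclassical monocytes. In edgeR 0 of 13944 genes passed it, while DESeq2 called 1205. Elane, neutrophil elastase, had 365.5 and 1933 CPM in intermediate libraries, against 220.5 and 307.9 CPM in classical libraries and 23.4 and 3.05 CPM in nonclassical libraries. Its log2 fold change of intermediate over classical was 2.12 (SE 1.18, edgeR adjusted p = 0.338). Prtn3, proteinase 3 of the same granules, had 269.0 and 791.8 CPM in intermediate libraries, against 188.4 and 197.7 CPM in classical libraries and 9.21 and 7.01 CPM in nonclassical libraries. It gave 1.46 (SE 0.526, edgeR adjusted p = 0.206). S100a8, an alarmin of neutrophils and monocytes, had 703.9 and 858.4 CPM in intermediate libraries, against 229.3 and 274.4 CPM in classical libraries and 167.4 and 60.8 CPM in nonclassical libraries. It gave 1.63 (SE 0.501, edgeR adjusted p = 0.158). None of the 3 passed, and the summed primary granule list was 4632 and 14700 CPM of the library total in the intermediate libraries.

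The class 1 to class 4 libraries entered only an alternative fit and no comparison of their own. In some of them markers of intermediate monocytes lay above both classical libraries. The lower of the 2 libraries had H2-Eb1 at 1212 CPM of the library total in class 1, 372.0 in class 2 and 381.0 in class 4. For C1qb it had 277.3 in class 1, 5.825 in class 2, 7.488 in class 3 and 233.5 in class 4. For Cd36 it had 22.75 in class 1, 37.64 in class 2 and 20.82 in class 4. Class 3 did not show this for 2 of the 3 markers, with H2-Eb1 at 38.8 and 13.6 and Cd36 at 3.07 and 1.72, against 31.1 and 36.9 of H2-Eb1 and 4.325 and 4.349 of Cd36 in the classical libraries.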

How the results depend on the processing

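The counts of called genes depended strongly on the test and the libraries, and the cause was not tested. DESeq2's Wald test called 1759 genes higher and 1334 lower, limma voom with sample quality weights 1004 and 549, and edgeR on all 14 primary libraries 958 and 1373. The 4 intermediate and classical libraries alone gave 240 lower genes. Leaving out 1 library gave 0 to 125 higher and 0 to 80 lower genes, and 4886 to 7032 genes separated higher and 5235 to 6695 lower, where 1 library in place of 2 makes separation easier. A group left with 1 library is assumed to vary like the others. Without replicate 1 of both intermediate and nonclassical monocytes, an alternative added after seeing the data, 3564 genes were higher and 3703 lower, all 166 and 128 calls among them. DESeq2 size factors gave 168 and 102 calls, no filter 207 and 158 and a minimum count of 50 gave 214 and 165. DESeq2 size factors moved the median of all genes by 0.0672 on the log2 scale. Between intermediate and nonclassical monocytes DESeq2, added later, called 1205 genes.

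With the replicate block, 184 genes were higher and 79 lower, of which 134 and 66 were also called without it. Among cell division genes 1 of 3 falls was then called, among growth factor receptors 1 of 3, and Cfp, Alas2, Pf4 and Pkm2 were not called, while 8 immediate early genes were called higher, against 2 without the block. By their labels the samples share only a number. Same-numbered deviations correlated at 0.18, 0.384 and 0.281 over the 3 pairs of groups, with 2 numbers each.

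Log2 fold changes stayed at 6.001 to 6.22 for H2-Eb1, 7.97 to 8.26 for C1qb and 5.09 to 5.25 for Cd36 over 16 fits, each past the threshold in 12 of the 15 fits with a test. Genes that changed sign had not been called. Ctss came to 0.0133 and Mcm2 to 0.0252 with DESeq2 size factors and with DESeq2. Cd3d and Cd3e came to -0.0067 and -1.1511 with voom and to -0.1427 and -1.1828 with a prior count of 0.5. Mcm2 came to 2e-04 with a minimum count of 50, and Cd3e to -2.2663 with the replicate block. With replicate 1 of both groups left out, Emr1 came to -0.3194, Gapdh to -0.0453, H2-Eb2 to -3.6589, Mcm2 to 0.3778 and Mcm6 to 0.0216. Leaving out 1 library in turn gave from -5.6621 to 3.7731 for Cd3d, -6.0417 to 1.7142 for Cd3e, -0.2175 to 0.0802 for Ctss, -0.2804 to 0.4587 for Emr1 and -0.6666 to 0.7281 for Fos. It gave from -0.0064 to 0.3637 for Gapdh, -3.5129 to 8.3512 for H2-Eb2, -0.6978 to 0.4167 for Mcm2 and -0.4322 to 0.0605 for Mcm6.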

Other observations

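Receptors that bind antibody or complement on phagocytes showed no common direction. Cd55, which shields cells from complement, had 38.9 and 57.1 CPM in intermediate libraries, against 0.285 and 0.182 CPM in classical libraries, and rose by 7.63 (SE 0.548) in edgeR's fit, adjusted p = 0.0134. Itgam, the integrin chain CD11b, had 219.7 and 215.5 CPM in intermediate libraries, against 882.8 and 576.2 CPM in classical libraries, and did not pass (−1.75, SE 0.393, adjusted p = 0.0958). Fcgr3, a low-affinity receptor for IgG, had 198.9 and 303.7 CPM in intermediate and 461.2 and 370.0 CPM in classical libraries. Fcgr2b, its inhibitory relative, had 256.5 and 249.96 CPM in intermediate and 203.0 and 182.1 CPM in classical libraries, so these receptors lay on opposite sides. Of 15 genes, 2 rose and none fell, with 7 separated higher and 6 lower, against 31.5% and 31.8% of all genes.

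Energy metabolism showed no calls that held for a whole list. Of 21 nuclear genes of oxidative phosphorylation, 0 passed in edgeR, 0 had an unadjusted p under 0.05 and DESeq2 called 0. Their median log2 fold change was 0.484, −0.087 without intermediate library 1 and 0.849 without intermediate library 2. Of 17 glycolytic genes, Eno3 was the 1 that rose and Pkm2, a pyruvate kinase, the 1 that fell (−1.23, SE 0.175), while Gapdh overlapped, with 708.7 and 536.8 CPM in intermediate and 543.1 and 545.4 CPM in classical libraries. Of 23 ribosomal protein genes 0 passed in edgeR, 1 had an unadjusted p under 0.05 and DESeq2 called 1. The neutrophil genes S100a8 and S100a9, alarmins, lay higher without passing, S100a9 at 879.7 and 1163 CPM in intermediate and 117.1 and 166.1 CPM in classical libraries (2.85, SE 0.684, adjusted p = 0.107).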
